A study of Rattus norvegicus with 18 samples.

Results

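The 9 genes described here encode secreted and membrane-bound proteases of the extracellular matrix and their inhibitors: the matrix metalloproteinases Mmp2, Mmp9 and Mmp14, the ADAMTS proteases Adamts1 and Adamts8, and the tissue inhibitors Timp1, Timp2, Timp3 and Timp4. They were taken by gene symbol, so the set is 9 of 14217 genes named on the array and 16 of its 31042 probe sets. Of the 16, 11 probe sets from 8 genes reached a signal of 400 on at least 1 array and were tested among 12238 probe sets, and neither probe set of Mmp9 did so. Experimental autoimmune myasthenia gravis (EAMG) had been induced in female Lewis rats, 6 to 8 weeks old, by immunization with Torpedo acetylcholine receptor (AChR) in complete Freund's adjuvant supplemented with mycobacteria, and control rats received the same adjuvant without AChR. The muscles were collected at week 6 and comprised the diaphragm (DIA, which drives breathing), the extensor digitorum longus (EDL, a limb muscle that extends the toes) and the rectus muscles of the eye (extraocular muscle, EOM). Each of the 6 groups of muscle and treatment had 3 arrays. The RNA of an array was a pool of rats, 3 by the sample labels and more by the methods, and the controls had been exposed to the adjuvant, so no group is an untreated muscle.

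Matrix metalloproteinases cleave collagens and other matrix proteins outside the cell. Mmp14 is anchored in the cell membrane and activates the proenzyme of Mmp2, a gelatinase, in a complex that also contains Timp2, while Mmp9 is the other gelatinase and is typical of neutrophils and macrophages. ADAMTS proteases are secreted, bind to the matrix and cleave proteoglycans such as versican. TIMPs block the active site of metalloproteinases, and Timp3, which stays bound to the matrix, also inhibits ADAM and ADAMTS proteases. In skeletal muscle these enzymes and inhibitors act in the connective tissue and the basement membrane around the fibres, which are remodelled after injury, disuse and regeneration.

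Myosin genes checked the muscle of each array, and no gene here checks whether it was EAMG or control. Myh13, the myosin of extraocular muscle, had signals of 17345 to 27950 on the 6 EOM arrays and at most 323 on the others. Myh4, a fast myosin, had 32051 to 45958 on the EDL arrays and 2191 to 11564 on the DIA arrays. The median signal of an array lay between 129 and 163. GAPDH is probed at both ends of its transcript as a measure of RNA integrity, and the 3'-end signal was 2.66 times that of the 5' end on array DIA EAMG 3 and 1.06 to 1.33 times on the other 17. The added poly-A control RNA had a mean signal of 885 on DIA EAMG 2 and 608 on EOM EAMG 2, while the other 16 arrays lay between 11604 and 28191. Signals of different probe sets are not comparable in level, so each gene is compared only with itself across arrays. In whole muscle, a change in the RNA of each cell cannot be told apart from a change in the number of cells that carry it.

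The question of the study was how each muscle responds to EAMG. Of the 11 tested probe sets, that of Adamts8 rose in DIA, and no other passed in any of the 3 muscles. A probe set was called when its difference in mean log2 signal passed an adjusted p of 0.05 by limma. As these genes were chosen with results from the same arrays in view, their calls and values are a description, and no p-value is given for them. In DIA 1 of the 11 was called, where 2.68% of all probe sets tested were. In EDL 0 of 11 were called by limma (background 6.59%) and in EOM 0 of 11 (background 1.50%). At an unadjusted p under 0.05 the counts were 1, 2 and 2 of 11 for DIA, EDL and EOM, where 19.9%, 23.7% and 13.1% of all probe sets tested were. By a simpler rule of at least 2-fold difference in the same direction in 7 or more of 9 pairs of an EAMG and a control array, 1 of the 11 was counted in DIA, 0 in EDL and 0 in EOM, against 0.793%, 0.882% and 0.858% of all probe sets. The median difference of the 11, EAMG minus control, was 0.13, 0.22 and 0.21 in DIA, EDL and EOM on the log2 scale, where that of all probe sets tested was 0.01, -0.0027 and 0.00057.

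**Figure D1:**
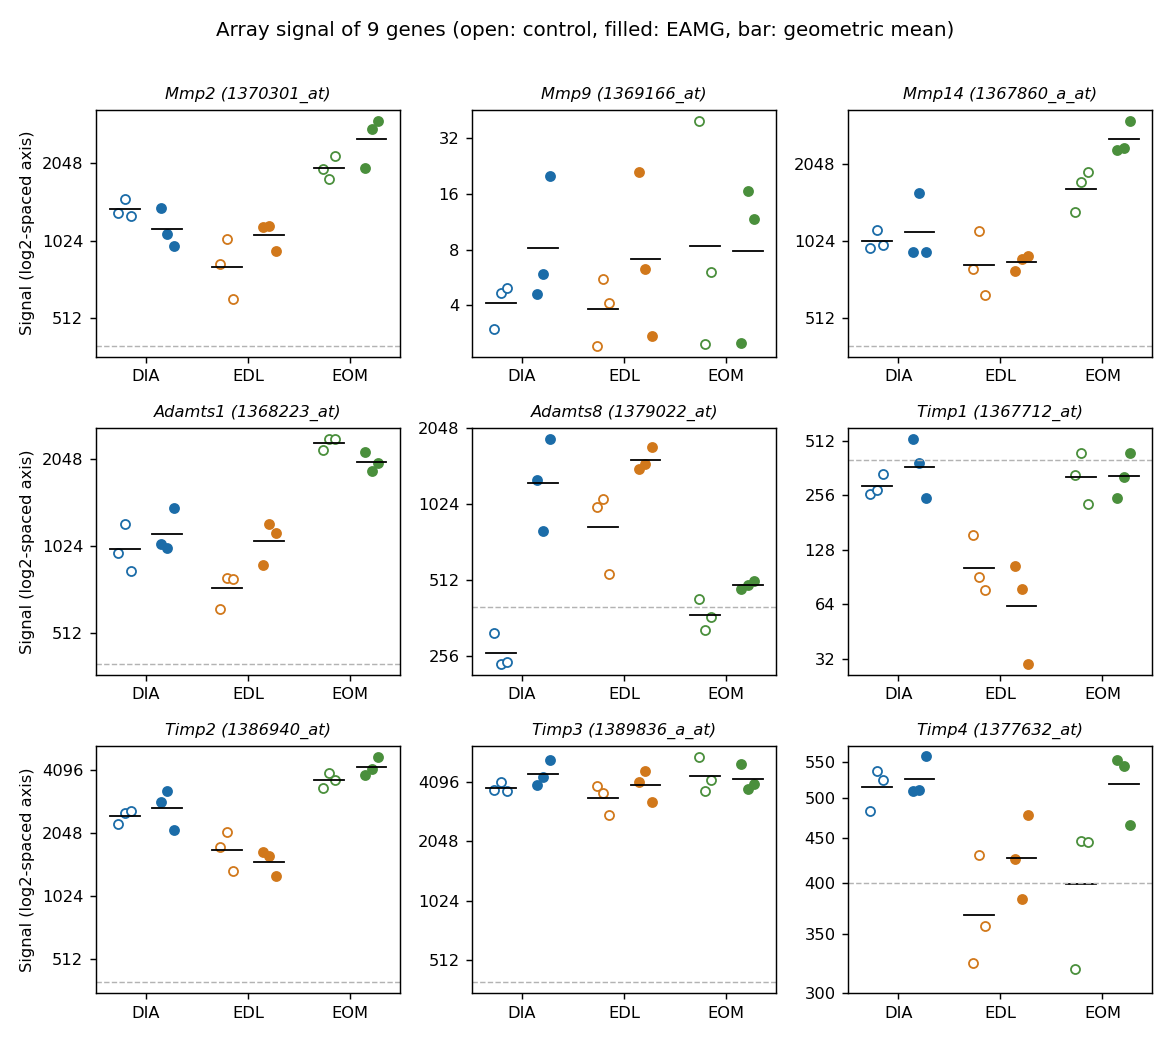
Array signal (vertical axis, log2 spacing, no unit) of the probe set with the highest mean log2 signal of each of the 9 genes, by muscle. Each point is 1 array, open for control and filled for EAMG, the black bar is the geometric mean of 3 arrays, and the dashed line is the signal of 400 needed on at least 1 array (below which all Mmp9 points lie). Adamts8 lies between 238 and 316 on the DIA control arrays and between 798 and 1854 on the DIA EAMG arrays.

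Mmp14, the membrane-anchored activator of Mmp2, had overlapping signals in DIA and EDL, and in EOM the EAMG arrays lay above the controls. The signals of 1367860_a_at in DIA were 961, 1131 and 985 in control and 931, 1573 and 924 in EAMG arrays. EDL control arrays had 792, 1123 and 629 and EDL EAMG arrays 783, 872 and 897. EOM control arrays had 1329, 1739 and 1900 and EOM EAMG arrays 2327, 2366 and 3011. The EOM groups did not overlap, which holds for 24.5% of all probe sets tested in that muscle. The log2 differences were 0.11 in DIA, 0.04 in EDL and 0.64 in EOM (SE 0.23 for each), and none was called. The second probe set of Mmp14, 1378225_at, lay between 90.6 and 205 on all 18 arrays and was not tested.

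Array EOM EAMG 3, with the highest Mmp14 signal, also stood apart in markers of other cell types. Summed signals are used as a summary of each marker list, and the brightest probe sets weigh most in them. The sum of 6 surface epithelium markers was 3508 on this array, 736 and 1130 on the other EOM EAMG arrays and 635 to 1517 on EOM control arrays. Of the EOM EAMG arrays, 5 of the 6 epithelial markers were highest on array 3, and 0 of 5 tested were called in EAMG. The sum of 10 macrophage markers was 22989 on this array, of which Lyz2 alone made up 14111, and 10608 to 10863 on the other EOM EAMG arrays, against 6890 to 14399 in EOM control. Of the macrophage markers, 8 of 10 were highest on array 3, Cd163 and C1qb were not, and 0 of 9 tested were called. The sum of 6 neutrophil markers was 3846 on this array, of which Lcn2 alone made up 3201, and only 2 of the 6 were highest there. S100a9 had 549, 416 and 378 on EOM EAMG arrays 1, 2 and 3, S100a8 was also highest on array 1, and 0 of 2 tested were called. The sum of 5 markers of orbital lipid glands was 5458 to 7310 in EOM EAMG against 2102 to 2824 in EOM control arrays. Of 3 tested, 1 was called higher. In 3 of the 5 the EAMG arrays lay above all controls, while Scd had means of 1302 in control and 1296 in EAMG. The same sum was 1938 to 11309 in DIA control arrays, so these markers are not particular to tissue of the orbit. On EOM EAMG 3 the sum of 8 skeletal muscle markers was 153220, against 192296 and 245936 on the other EOM EAMG and 204079 to 221165 on EOM control arrays. None of the 8 was called. The sum of 3 extraocular muscle markers was 20686, against 25119 and 31554, and 26993 to 30953 in control, with 1 of 3 called higher in EAMG. The fibroblast sum was 24830, between the 21409 and 25965 of the other EOM EAMG arrays. The part of these cell types in the EOM values of the 9 genes was not tested. No marker of these lists was listed at 0.

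Mmp2, the gelatinase that Mmp14 activates, did not pass in any muscle. The signals of 1370301_at in DIA were 1309, 1489 and 1274 in control and 1370, 1087 and 979 in EAMG arrays. In EDL the controls had 830, 1040 and 606 and EAMG 1154, 1168 and 932. In EOM they were 1952, 1773 and 2182 in control and 1963, 2789 and 2995 in EAMG. The EAMG and control arrays overlapped in all 3 muscles. On the log2 scale DIA differed by -0.26, EDL by 0.42 and EOM by 0.37 (SE 0.20 for each). A dimmer probe set of Mmp2, 1369825_at, lay between 16.5 and 133 and was not tested.

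Mmp9, the gelatinase of neutrophils and macrophages, was at the low end of the scale in every group. Its probe set 1369166_at lay between 2.42 and 39.8 with a median of 5.24 over 18 arrays, and 1398275_at between 1.88 and 22.7 with a median of 3.87. The highest signal of the former was on array EOM control 1 and that of the latter on EOM EAMG 2. At such signals no difference between groups could be measured for this gene, and no fold is given.

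Adamts8, a secreted protease of the ADAMTS family, had EAMG arrays above all control arrays in each of the 3 muscles, and its rise in DIA passed. The signals of 1379022_at in DIA were 316, 238 and 243 in control and 1272, 798 and 1854 in EAMG arrays. In EDL they were 994, 1071 and 540 in control and 1411, 1472 and 1720 in EAMG. In EOM they were 431, 324 and 366 in control and 472, 487 and 505 in EAMG. So the muscle with the lowest control signals showed the widest separation, and the EOM groups lay close together, with 431 as the highest control and 472 as the lowest EAMG array. All 3 DIA control arrays were below 400, the signal used as the minimum.

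In DIA the signal was 4.69-fold higher in EAMG, a log2 difference of 2.23 (SE 0.27), which ranked 19 by size among the 12238 probe sets tested. In EDL the difference was 0.88 and in EOM 0.39 with the same SE, and neither was called. The EAMG arrays lay above the control arrays in all 3 muscles for 296 of the probe sets tested, or 2.42%. As the muscles may come from the same rats, the separations in the 3 muscles may not be independent. The DIA difference kept its call without any single array (18 fits), with values from 1.94 to 2.54. Without DIA EAMG 3, which had the highest Adamts8 signal and the high GAPDH ratio, it was 1.94 (SE 0.26). Without both arrays of low poly-A signal it was 2.54 (SE 0.26). The call was lost when each muscle was fitted alone, with the same difference of 2.23 and an SE of 0.30, a fit in which 14 of all probe sets tested were called in DIA, against 328 in the fit of all arrays.

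The sum of 10 macrophage markers moved in the same direction in DIA, from 7155 to 10533 in control to 11007 to 15136 in EAMG arrays, with 0 of 9 tested markers called. Lyz2 was the brightest of the 10, and in 6 of the 10 the EAMG arrays lay above all controls. Of all probe sets tested, 24.4% had no overlap in DIA, in either direction. The sum was highest on DIA EAMG 2, the EAMG array with the lowest Adamts8 signal of that muscle. It overlapped in EDL, at 1871 to 4113 in control and 1799 to 4468 in EAMG arrays, and its part in the Adamts8 values was not tested. The sum of 6 endothelial markers was 4982 to 6300 in DIA control and 5536 to 6837 in DIA EAMG arrays, with 1 of 6 called higher.

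Adamts1, which cleaves versican and aggrecan, differed in direction between EDL and EOM. In EDL all 3 EAMG arrays lay above the controls, and in EOM all 3 lay below. The signals of 1368223_at in EDL were 617, 794 and 787 in control and 877, 1213 and 1131 in EAMG arrays. In EOM they were 2199, 2397 and 2396 in control and 2165, 1860 and 1975 in EAMG. In DIA the groups overlapped, at 963, 1218 and 836 in control and 1035, 1007 and 1377 in EAMG. The log2 differences were 0.55 in EDL, -0.22 in EOM and 0.18 in DIA (SE 0.17 for each), and none was called. With single arrays left out, the EDL value was called in 2 of 18 fits.

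Of the TIMPs, 7 probe sets were tested and none was called in any muscle. Timp1, an inhibitor with broad action on metalloproteinases, had signals in DIA of 260, 274 and 337 in control and 524, 384 and 248 in EAMG arrays. The EDL arrays had 154, 90.8 and 76.5 in control and 105, 77.6 and 30.2 in EAMG, all under 400. The EOM arrays had 332, 440 and 231 in control and 248, 322 and 438 in EAMG. The groups overlapped in each muscle, and the log2 differences of 0.35, -0.71 and 0.02 had an SE of 0.41, the widest of the 11 probe sets. Only 3 of the 18 arrays reached 400 for this gene.

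Timp2, which both inhibits metalloproteinases and takes part in the activation of Mmp2, had signals for 1386940_at in DIA of 2275, 2576 and 2618 in control and 2887, 3271 and 2136 in EAMG arrays. In EDL they were 1760, 2071 and 1349 against 1661, 1592 and 1274, and in EOM 3383, 3975 and 3676 against 3908, 4140 and 4748. The groups overlapped in all 3 muscles, with log2 differences of 0.13, -0.18 and 0.21 (SE 0.18). The dimmer probe set 1367823_at gave -0.53 in DIA, -0.33 in EDL and 0.04 in EOM (SE 0.29), so the 2 probe sets had opposite signs in DIA.

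Timp3, the matrix-bound inhibitor, had 3 tested probe sets, with overlapping groups in every muscle. The signals of 1389836_a_at were 2773 to 5470 over all 18 arrays, and its log2 differences were 0.23 in DIA, 0.23 in EDL and -0.05 in EOM (SE 0.18). For 1375138_at the differences were 0.46, 0.34 and 0.16 (SE 0.26). For 1372926_at they were 0.08, -0.20 and 0.31 (SE 0.22), so the sign in EDL and EOM depended on the probe set. The probe set 1368989_at lay between 15.6 and 161 and was not tested.

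Timp4, an inhibitor found in heart and skeletal muscle, had a narrow range, from 320 to 558. The signals of 1377632_at in DIA were 483, 536 and 524 in control and 510, 510 and 558 in EAMG arrays. In EDL they were 324, 430 and 358 in control and 427, 384 and 478 in EAMG. In EOM they were 320, 447 and 446 in control and 553, 544 and 466 in EAMG, without overlap. The log2 differences were 0.03, 0.22 and 0.38 (SE 0.14), and none was called.

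Counting arrays without overlap, 1 of the 11 probe sets separated in DIA (background 24.4%), 2 in EDL (25.0%) and 4 in EOM (24.5%). In DIA this was Adamts8 and in EDL Adamts8 and Adamts1, all with EAMG above control. In EOM Adamts8, Mmp14 and Timp4 were above and Adamts1 was below control.

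**Figure D2:**
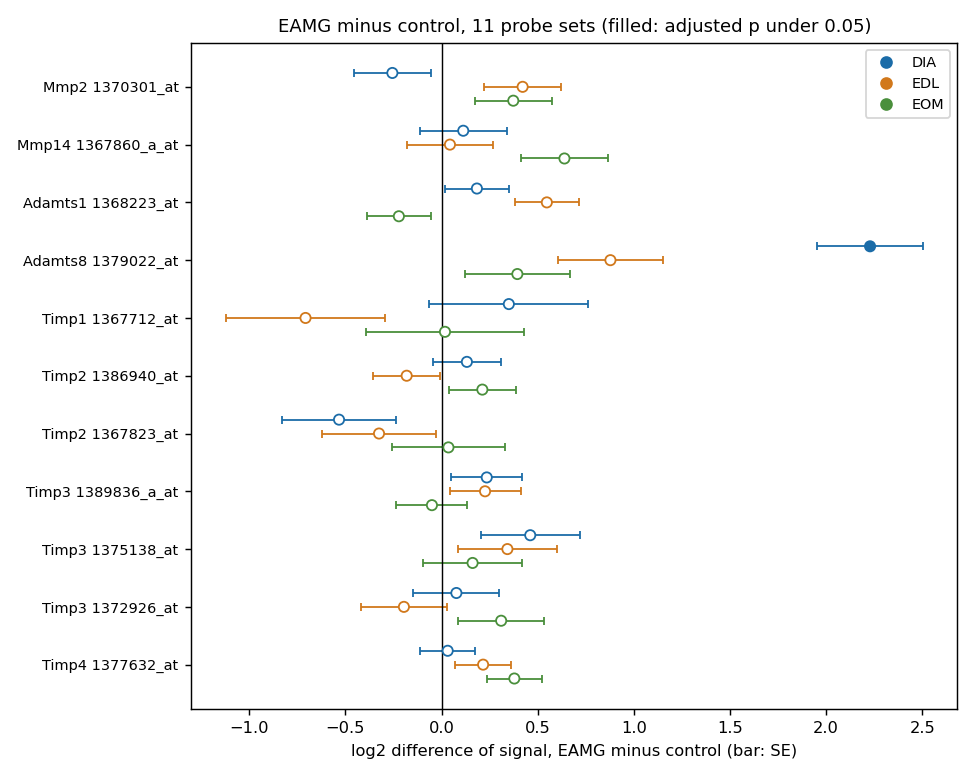
Log2 difference of signal, EAMG minus control (horizontal axis), of the 11 tested probe sets, with the SE from limma as bars, by muscle. A filled point had an adjusted p under 0.05, which holds only for Adamts8 in DIA at 2.23, and the other 32 points lie between -0.71 and 0.88.

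Whether the change in EAMG differed between muscles was tested as a difference of differences. Of the 11 probe sets, 0 were called by limma for EDL against DIA and 0 for EOM against DIA (background 0.0163% in each), and 0 for EOM against EDL (background 0.106%). At an unadjusted p under 0.05 the counts were 2, 2 and 1, where 5.31%, 6.50% and 10.1% of all probe sets tested passed. For Adamts8 the change in EOM minus that in DIA was -1.83 and the change in EDL minus that in DIA was -1.35 on the log2 scale (SE 0.39 for each). For Adamts1 the change in EOM minus that in EDL was -0.77 (SE 0.24). So the call of Adamts8 in DIA alone does not show that DIA responded differently from the other muscles.

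The 3 control muscles differed from each other more widely in these genes. In EOM control, Adamts1, Mmp2, Mmp14, Timp1 and both probe sets of Timp2 were higher than in EDL control, and Adamts8 was lower. In DIA control, Mmp2, Timp1, Timp2 (by 1386940_at only) and Timp4 were higher and Adamts8 was lower than in EDL control. All probe sets of Timp3 missed the threshold in the 3 comparisons of control muscles. For 9 of the 11 tested probe sets the range of the 3 control means was wider than the largest change in EAMG. The exceptions were Adamts8, with a range of 1.66 and a change in DIA of 2.23, and 1375138_at of Timp3, with 0.38 and 0.46. The same share was not computed over all probe sets tested, so it is not a result about these genes. Over all probe sets, calls were also more frequent between control EOM and EDL (23.1% higher, 18.3% lower) than in EAMG (1.50% to 6.59%).

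For EOM against EDL 6 of the 11 probe sets were called higher and 1 lower, where 23.1% of all probe sets tested were called higher and 18.3% lower. The log2 differences were 1.68 for Adamts1 (SE 0.17), 1.66 for Timp1 (SE 0.41), 1.28 for Mmp2 (SE 0.20) and 0.99 for Mmp14 (SE 0.23). They were 1.11 (SE 0.18) and 1.35 (SE 0.29) for the probe sets of Timp2, and -1.16 for Adamts8 (SE 0.27). In each of these 7 the control arrays of the 2 muscles did not overlap, and with 1372926_at of Timp3, which was not called, 8 of 11 separated (background 57.2%). All 7 calls held in every fit without 1 array and in every other alternative.

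For EOM against DIA 3 of the 11 were called higher and 0 lower (background 10.6% and 10.7%). These were Adamts1 at 1.23 (SE 0.17), Mmp14 at 0.68 (SE 0.23) and Timp2 at 0.56 (SE 0.18, 1386940_at). Without any 1 of DIA control 1, DIA control 2, DIA control 3, EOM control 2 or EOM control 3, Adamts1 alone was called. The arrays separated for 7 of the 11 (background 44.3%). Adamts8 at 0.49 (SE 0.27), Mmp2 at 0.54 (SE 0.20) and Timp1 at 0.16 (SE 0.41) missed the threshold.

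For DIA against EDL 4 of the 11 were called higher and 1 lower (background 14.1% and 10.8%). Timp1 was 1.50 higher (SE 0.41), Mmp2 0.75 (SE 0.20), Timp2 0.55 (SE 0.18, 1386940_at) and Timp4 0.48 (SE 0.14), and Adamts8 differed by -1.66 (SE 0.27). The arrays separated for 7 of the 11 (background 42.1%). The number of calls was 1 without EDL control 3, the lower call of Adamts8, and 2 without DIA control 2. It was 3 without DIA control 3 and 3 without EDL control 1. The order of control means was thus EOM, DIA, EDL for Adamts1, Mmp2, Mmp14, Timp1 and Timp2. Neighbours in that order did not differ beyond the threshold for Adamts1 and Mmp14 between DIA and EDL, or for Mmp2 and Timp1 between EOM and DIA. The dimmer probe set of Timp2, 1367823_at, missed the threshold at both steps. For Adamts8 the order was EDL, EOM, DIA, with EOM and DIA not separated by the test, and for Timp4 it was DIA, EOM, EDL, with only DIA and EDL separated.

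**Figure D3:**
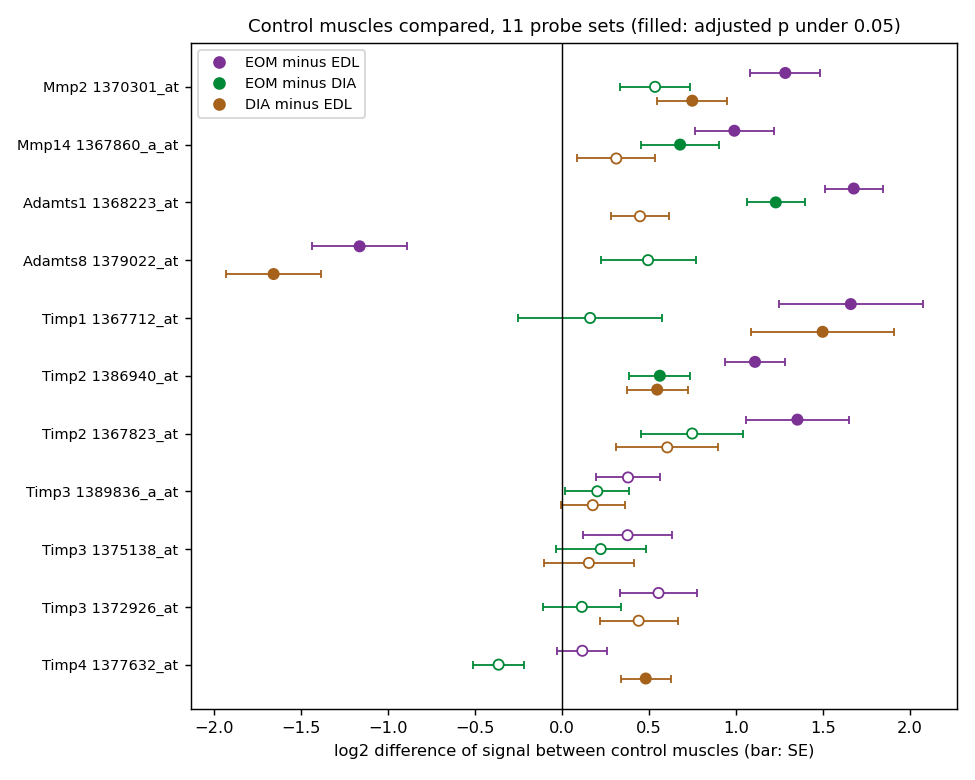
Log2 difference of signal between control muscles (horizontal axis) of the 11 tested probe sets, with the SE from limma as bars and 3 arrays per muscle. Filled points had an adjusted p under 0.05, and for EOM minus EDL 6 of them lie to the right, from 0.99 to 1.68, and Adamts8 lies to the left at -1.16.

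The marker sums of fibroblasts and macrophages also differed between the control muscles. The sum of 8 fibroblast markers was 25446 to 28272 in EOM control, 17325 to 22863 in DIA control and 5457 to 11078 in EDL control arrays. Of 7 tested fibroblast markers, 7 were called higher in EOM than in EDL and 6 in DIA than in EDL, and Thy1 was under the minimum throughout. The macrophage sum was 6890 to 14399 in EOM control, 7155 to 10533 in DIA control and 1871 to 4113 in EDL control arrays. All 9 tested macrophage markers were called higher in EOM than in EDL and 6 in DIA than in EDL, and Adgre1 was under the minimum. Between EOM and DIA control, 2 of the 7 fibroblast markers were called higher in EOM and 0 of the 9 macrophage markers were called. The macrophage sums of those muscles overlapped. The part of these cell types in the differences of the 9 genes between muscles was not tested.

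Of the genes called higher in EOM than in EDL, Adamts1, Timp1 and Timp2 have a promoter window in the RefSeq table of the build GRCr8, which holds 5 of the 9 genes. They are shown because their signals were higher together in 1 muscle, as the 160 bases before the annotated start, 5′ to 3′ on the minus strand. Capitals mark matches on either strand to TGAGTCA (the AP-1 site), its variant TGAGTAA, the TATA box as TATAAA, the GC box as GGGCGG, or the CCAAT box.
Adamts1, chr11:38427385-38427544: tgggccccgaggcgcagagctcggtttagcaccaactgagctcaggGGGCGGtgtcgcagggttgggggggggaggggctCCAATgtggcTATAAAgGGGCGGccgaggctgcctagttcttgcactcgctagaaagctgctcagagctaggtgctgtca
Timp1, chrX:3771123-3771282: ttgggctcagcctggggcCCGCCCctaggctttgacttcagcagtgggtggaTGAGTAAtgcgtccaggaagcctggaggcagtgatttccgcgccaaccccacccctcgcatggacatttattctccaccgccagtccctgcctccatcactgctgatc
Timp2, chr10:104089215-104089374: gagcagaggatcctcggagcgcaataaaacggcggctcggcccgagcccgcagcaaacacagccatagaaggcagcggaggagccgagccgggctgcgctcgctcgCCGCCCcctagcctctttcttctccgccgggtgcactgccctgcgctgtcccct

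The 3 windows share a GC box and no other of these motifs. A GC box is also in the window of Timp3, with 3 matches, which was not called higher in EOM, and that of Timp4 has none. In Adamts1 a CCAAT box begins 80 bases, a TATA box 70 bases, and GC boxes 114 and 63 bases before the start. Timp1 has the AP-1-like TGAGTAA at 108 bases and a GC box at 142 bases before the start, and Timp2 a GC box at 54 bases. Among 33469 rat promoter windows of 250 bases, GGGCGG was present in 30.5%, CCAAT in 34%, TATAAA in 12.9%, TGAGTCA in 4.05% and TGAGTAA in 2.38%. The variant TGAGTAA was added to the search after the sequences had been seen. A match of letters is a description of the sequence and does not show binding or use of a site.

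Other genes of matrix proteolysis were taken from general knowledge, as 79 proteases, activators and inhibitors and 15 matrix substrates. Earlier results of these data were known when the list was drawn up, so its adjusted p-values are a description. Of these 94 genes 75 had a probe set, and 48 probe sets of 40 genes were tested. Among the 30 probe sets of proteases, activators and inhibitors, 0 were called by limma in DIA, EDL or EOM. At an unadjusted p under 0.05 the counts were 6, 10 and 1 of 30, beside the 19.9%, 23.7% and 13.1% of all probe sets. The calls in EAMG all fell on the substrates, where type I and type III collagen were lower. Of 48 probe sets, 4 were called lower and 0 higher in DIA, 5 lower and 1 higher in EDL, and 0 in EOM. Over all probe sets tested, limma called 2.68% in DIA, 6.59% in EDL and 1.50% in EOM, in either direction. In EOM 2 of the 48 had an unadjusted p under 0.05. The median log2 difference of the 48 was -0.23, -0.22 and -0.07 in the same order of muscles.

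In DIA the 4 calls were both probe sets of Col1a1 and both of Col1a2, the chains of type I collagen. Col1a1 (1370864_at) had signals of 1215, 1609 and 1431 in control and 764, 334 and 401 in EAMG arrays. It fell by 1.59 on the log2 scale (SE 0.35, adjusted p = 0.0258, limma). The other probe set of Col1a1, 1388116_at, fell by 1.44 (SE 0.31, adjusted p = 0.0258) and Col1a2 (1370155_at) fell by 1.23 (SE 0.26, adjusted p = 0.0252). The EAMG arrays lay below all controls. None of the 4 was called without DIA control 1, DIA control 2, DIA control 3, DIA EAMG 2 or DIA EAMG 3, each left out alone, and 9 probe sets of the list were called lower without DIA EAMG 1.

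In EDL the 5 lower calls were the same 4 probe sets and Col3a1, the chain of type III collagen. Col1a2 (1387854_at) had signals of 4352, 3700 and 4447 in control and 2278, 1220 and 1246 in EAMG arrays. It fell by 1.46 on the log2 scale (SE 0.26, adjusted p = 0.00614, limma), and its call held whichever of the 18 arrays was left out. Col1a1 (1370864_at) fell by 1.41 (SE 0.35, adjusted p = 0.0275) and Col3a1 by 1.37 (SE 0.30, adjusted p = 0.0180). In DIA the EAMG arrays of Col3a1 also lay below the controls, at 5561 to 9062 against 14186 to 14502, without a call. The 1 higher call in EDL was Lama2, a laminin chain of the muscle basement membrane, at 0.72 (SE 0.18, adjusted p = 0.0317). It is named because it was the only higher call. Its EAMG arrays also lay above the controls in DIA (2457 to 3145 against 1723 to 2165) and EOM (3070 to 3589 against 2508 to 2607), without a call. Leaving out 1 array gave 1 to 13 calls in EDL, with 1 without EDL control 1, EDL EAMG 2 or EDL EAMG 3, 3 without EDL control 2, 10 without EDL EAMG 1 and 13 without EDL control 3. The fibroblast sum was 14788 to 16952 in DIA EAMG against 17325 to 22863 in DIA control arrays, and 4688 to 7079 in EDL EAMG against 5457 to 11078 in EDL control. Its part in the collagen values was not tested.

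For each list without a call, the probe set with the largest difference is given, with its adjusted p from limma. In DIA these were Adam17, a sheddase, at -0.42 (adjusted p = 0.142), Adamts5, an aggrecanase, at -0.37 (adjusted p = 0.532), Serpinf1, a secreted serpin, at -0.52 (adjusted p = 0.165), and Pcolce, an enhancer of procollagen cleavage, at -0.67 (adjusted p = 0.102). In EDL they were Adamts5 at -0.81 (adjusted p = 0.128), Adam23 at -0.72 (adjusted p = 0.0936), Plat, the tissue plasminogen activator, at 0.44 (adjusted p = 0.0579) and Lox, which cross-links collagen, at 0.80 (adjusted p = 0.0637). In EOM they were Adamts15 at 0.55 (adjusted p = 0.0718), Adam33 at 0.22 (adjusted p = 0.801), Serpinf1 at -0.41 (adjusted p = 0.414), Pcolce at -0.28 (adjusted p = 0.630) and, among the substrates, Fn1, fibronectin, at -0.55 (adjusted p = 0.317). Mmp7, a secreted metalloproteinase, was tested only because its signal was 711 on array EOM EAMG 3. It was at most 59.7 on the other 17 arrays, a level at which no difference is given, and it was not called in any muscle. The same holds for Mmp12, another metalloproteinase, at 1636 on EOM EAMG 3 and at most 78.3 on the other 17 arrays. Both are in the counts and medians of the list.

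**Figure D4:**
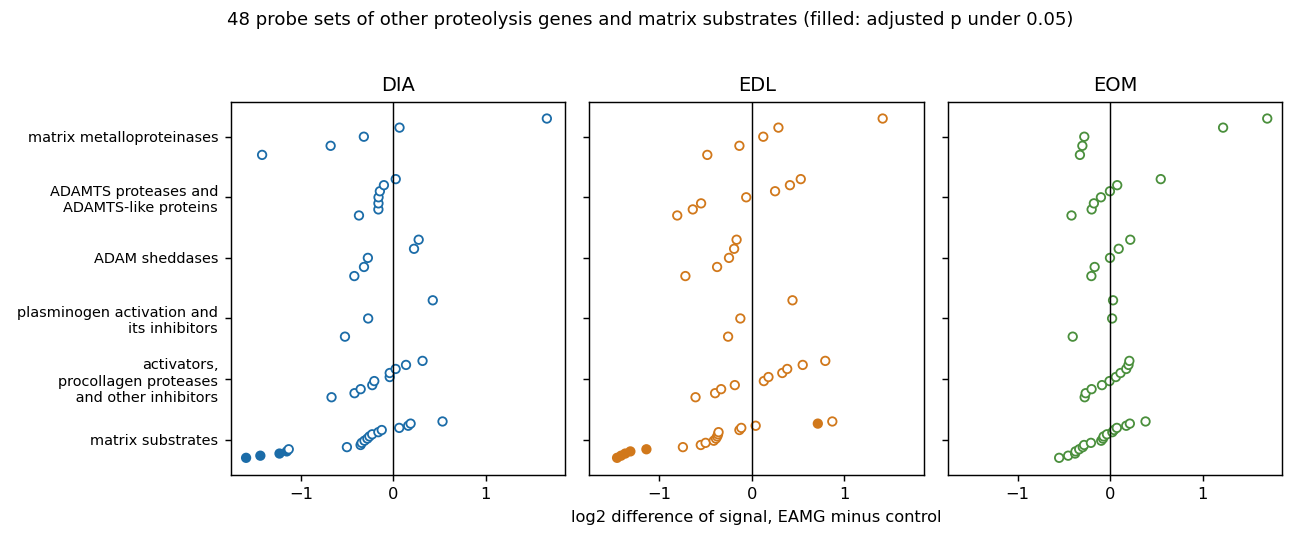
Log2 difference of signal, EAMG minus control (horizontal axis), of 48 probe sets of other proteolysis genes and matrix substrates, by list (rows) and muscle (panels). Each point is 1 probe set, filled where the adjusted p was under 0.05: the 4 filled points in DIA lie between -1.59 and -1.15, those in EDL between -1.46 and -1.14 and at 0.72, and EOM has none.

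The genes next to Adamts8 and Adamts1 on their chromosomes are also ADAMTS genes. Adamts15 lies beside Adamts8, and its log2 differences were -0.16, 0.25 and 0.55 in DIA, EDL and EOM and had their highest value in EOM, where that of Adamts8 was lowest. Adamts5 lies beside Adamts1, which gave 0.18, 0.55 and -0.22 in the same order of muscles. The probe set 1384724_at of Adamts5 gave -0.37, -0.81 and 0.00 and 1394483_at gave -0.16, -0.64 and -0.20, so the signs differed from Adamts1 in DIA and EDL for both, and none was called. The differences between these genes were not tested. Timp1, Timp3 and Timp4 each overlap a synapsin gene, Syn1, Syn3 and Syn2, and Timp2 overlaps Cep295nl. The overlap is one of gene coordinates, and whether any probe matches a transcript of the other gene was not checked.

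The pattern of each of the 2 ADAMTS genes over the 6 group means, centred on their own mean, was set against that of every tested probe set with 1 symbol. Closest to Adamts8 were Pfkfb3, with a root mean square difference of 0.28 on the log2 scale, Pnpla7 at 0.34 and Pde4b at 0.40. Closest to Adamts1 were Wrnip1 at 0.11, Suox at 0.12 and Stmn1 at 0.12. This ranking is over 6 means only, and carries no test.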

How the data were processed

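The 18 Affymetrix rat arrays were grouped by their labels, and the array was the unit of replication. The deposited values were signal intensities from GCOS 2.0, by which the authors summarized the probe pairs and scaled each array to a common target (here a mean of 500.2 without the outer 2% on each side). The genome build behind the array annotation was not given in the sources used here, and promoter windows are from RefSeq on GRCr8. Array controls (57) were left out. Symbols came from the platform annotation, with 20826 probe sets carrying 1, 436 several and 9780 none.

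Probe sets with a signal of 400 on at least 1 array were tested on the log2 scale in 1 limma 3.58.1 fit (R 4.3.3, lmFit and eBayes) with a mean per group, adjusted by Benjamini and Hochberg over all 12238. The methods' GCOS change calls need values not used here, so limma stood in, with a ratio rule as an alternative. SE is from limma and SD is between arrays. Precision is limited by the number of arrays, since 3 against 3 allow no two-sided exact p below 0.1. The script was tested on simulated data. By the methods the replicates were independent pools from repeats of the study, which the labels do not state, so p-values measure the spread between these pools.

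The 9 genes, the other gene lists, the marker lists and the tests were chosen with earlier results of these data known. All probe sets of the 9 genes are described, first the one with the highest mean log2 signal. Of the other lists, up to 3 called probe sets with the largest change were named in each muscle, or the largest where none was called. Likeness was computed for the genes with the largest change in EAMG and the largest range of control means. Alternatives were no minimum, 400 on at least 3 arrays, quantile normalization, 100 added to each signal, each muscle or the controls fitted alone, a replicate block, an intensity trend, and arrays left out. Figures used python 3.11.15 and matplotlib 3.10.9.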

Additional observations from a re-analysis of the deposited data

How the results depend on the processing

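With each muscle fitted alone, 0 of the 11 probe sets were called in DIA (1 in the full fit), and the list of other proteolysis genes and substrates had 0 calls in DIA and 0 in EDL (4 and 6). With no signal minimum the 9 genes had 1 call for EOM against DIA (3) and 1 for DIA against EDL (5), and the list 0 in DIA and 1 in EDL. Quantile normalization gave 5 calls for EOM against DIA, with 4 higher and 1 lower, and 1 for the list in EOM (0). An intensity trend gave 1 call of the 9 genes in EDL (0), Adamts1. Without both arrays of low poly-A signal there was 1 in EDL, Adamts8, and the list had 0 calls in DIA and 1 in EOM. The ratio rule counted 2 of the list in EDL. Leaving out 1 array at a time, the 9 genes had 1 to 1 calls in DIA, 0 to 2 in EDL, 0 to 0 in EOM, 7 to 8 for EOM against EDL, 1 to 4 for EOM against DIA, 1 to 7 for DIA against EDL and 0 to 0 for each difference between muscles. The list had 0 to 9, 1 to 13 and 0 to 1 in DIA, EDL and EOM. In EDL the 9 genes had 2 calls without DIA EAMG 3, 1 without DIA EAMG 2 and 1 without EDL EAMG 1. The cause was not tested, apart from the smaller number of arrays where some were left out. No result changed direction. Over the single values followed (57), alternatives left the status, called or not called, unchanged in 1358 comparisons. A call was lost in 72 comparisons and gained in 33. Signals under 400 limit Timp1 in EDL and Mmp9 throughout.

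A replicate block, from the numbers of the labels, left the calls of the 9 genes at 1 in DIA, 0 in EDL, 0 in EOM, 7, 3 and 5 between control muscles and 0 between changes, and the list at 5, 7 and 0. Same-numbered EAMG and control arrays of a muscle had deviations that correlated at r from -0.03 to 0.34, over 0.1 in 7 of 9 pairs. The correlation of each array with the arrays of the other groups was also averaged by number. For 15 of 18 arrays the mean was highest for their own number. Pairing was accepted only if all 9 pairs were over 0.1, which they were not, or if the labels tied a number to a repeat of the study, which they do not, so the block stayed an alternative. The methods describe repeats of the study. Between muscles, same-numbered arrays of 1 treatment had deviations that correlated at r from -0.20 to 0.47. Over all probe sets the block gave 457, 1050 and 228 calls in DIA, EDL and EOM, against 328, 806 and 183 without it.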

Other observations

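The other genes of matrix proteolysis also differed between the control muscles. Of the 30 probe sets of proteases, activators and inhibitors, 18 were called higher and 1 lower in EOM control than in EDL control by limma, where 23.1% and 18.3% of all probe sets tested were. For EOM against DIA the counts were 6 higher and 1 lower (background 10.6% and 10.7%), and for DIA against EDL 14 higher and 1 lower (background 14.1% and 10.8%). The genes named next were chosen after their values were seen, so their values are a description and no p-value is given for them. Adam23, which lacks protease activity and acts in cell adhesion, had mean signals of 1097 in EOM, 298 in DIA and 180 in EDL control. It differed by 2.68 on the log2 scale between EOM and EDL (SE 0.25). Reck, a membrane-anchored inhibitor of metalloproteinases, had 1743, 987 and 519, a difference of 1.86 between EOM and EDL (SE 0.26). Pcsk6, a proprotein convertase, had 1073, 642 and 248, a difference of 2.19 (SE 0.24).

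The single lower call in EOM control was Serpine2, an inhibitor of plasminogen activators and thrombin. Its signals were 689, 564 and 698 in EOM, 1157, 1750 and 1420 in DIA, and 1700, 1657 and 1529 in EDL control arrays. It differed by -1.33 between EOM and EDL (SE 0.24) and by -1.14 between EOM and DIA (SE 0.24). Adamtsl1, an ADAMTS-like protein without a protease domain, was the single gene of the list called lower in DIA than in EDL, at -1.47 (SE 0.18). Its control signals were 165, 192 and 196 on DIA arrays, 622, 540 and 395 on EDL arrays and 1035, 922 and 930 on EOM arrays. The marker sums of fibroblasts and macrophages given above were also higher in EOM and DIA control than in EDL control. Between EOM and DIA control the fibroblast sum was higher in EOM and the macrophage sums overlapped. The part of these cell types in the values was not tested.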
